A study of Homo sapiens with 12 samples.

Results

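Long non-coding RNAs that rose with temozolomide resistance, or that are usually abundant, were followed in the glioblastoma cell lines U87 (U-87 MG) and U118 (U-118 MG). The set held 10 genes of the 58174 in the expression tables, found by symbol through their Ensembl identifiers. LINC02392, LINC00922 and LINC01705 were chosen because they rose in U87, so their U87 values are described here and not tested. NEAT1, MALAT1, PVT1, MIAT, TUG1, SNHG1 and GAS5 were taken as well-studied long non-coding RNAs expected to be abundant. The mRNA-seq held 12 libraries, 3 in each of 4 groups, and values were TPM, a level scaled for transcript length and for the total of a library.

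The groups were U87 control, U87 aggregation, U118 control and U118 aggregation. Control cells, labelled sensitive, were grown without temozolomide (TMZ), a drug that methylates DNA. Aggregation cells, labelled resistant, were the clusters that grew out after long exposure to TMZ at 50 μM. According to the methods, cells of both lines were first sorted as CD133-CD15- and kept in medium with serum and BMP2 to hold them in a differentiated state. Each line is a long-established culture, and the labels do not say whether the 3 libraries of a group came from separate cultures, so the spread between them may be technical. Since these are bulk libraries, fewer cells of a kind and less RNA per cell cannot be told apart.

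Long non-coding RNAs are transcripts without a long open reading frame, many of them spliced and polyadenylated like mRNA. NEAT1 is the scaffold of nuclear paraspeckles, MALAT1 lies in nuclear speckles beside the splicing machinery, and TUG1 is linked to chromatin repression. SNHG1 and GAS5 host small nucleolar RNAs (snoRNAs), which guide the modification of ribosomal RNA, in their introns, and their spliced transcripts are degraded by nonsense-mediated decay. PVT1 lies beside the MYC oncogene, and several of these RNAs are studied in glioma for their relation to growth and drug response.

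The genes were placed with GENCODE release 29 on GRCh38. LINC02392 (ENSG00000258183) covered chr12:90280894-90300340 on the plus strand, with 3 annotated transcripts of at most 4 exons and 574 bases. LINC00922 (ENSG00000261742) covered chr16:65284499-65576300 on the minus strand, a body of 291802 bases whose longest spliced transcript has 1760 bases. LINC01705 (ENSG00000232679) covered chr1:222041705-222064763 on the minus strand, with a single transcript of 3 exons and 562 bases. NEAT1 (ENSG00000245532, chr11:65422774-65445540) and MALAT1 (ENSG00000251562, chr11:65497688-65506516) are neighbours on the plus strand, 52148 bases apart. TUG1 (ENSG00000253352) covered chr22:30969245-30979395, MIAT (ENSG00000225783) chr22:26646428-26676475, SNHG1 (ENSG00000255717) chr11:62851988-62855914, GAS5 (ENSG00000234741) chr1:173863900-173868882 and PVT1 was ENSG00000249859. SNHG1 held 7 annotated snoRNA genes within its body. The sources used here do not say whether reads were counted by strand, so reads of TUG1 and GAS5 cannot be told from those of the genes on the opposite strand, of which the highest reached 5.06 TPM (AC004542.1 at TUG1) and 1.53 TPM (GAS5-AS1).

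RefSeq start windows (250 bases before to 50 after the annotated start, GRCh38.p14) were at hand for 7 of the 10 genes. Those of LINC02392 (chr12:90293068-90293367, plus strand) and LINC01705 (chr1:222059344-222059643, minus strand) are shown because both genes went from near 0 to high levels in U87. The windows of TUG1 (chr22:30969015-30969314, plus strand) and SNHG1 (chr11:62855836-62856135, minus strand) are shown as examples of genes called lower in U118. MALAT1, also called lower, has 2 windows that are not printed, the first with the GC box 5 times and the second with a TATA box before the start. Capitals mark matches, on either strand, to the hypoxia response cores (ACGTG and GCGTG), the AP-1 site (TGACTCA), the E-box (CACGTG), the GC box (GGGCGG) or the TATA box (TATAAA).
LINC02392: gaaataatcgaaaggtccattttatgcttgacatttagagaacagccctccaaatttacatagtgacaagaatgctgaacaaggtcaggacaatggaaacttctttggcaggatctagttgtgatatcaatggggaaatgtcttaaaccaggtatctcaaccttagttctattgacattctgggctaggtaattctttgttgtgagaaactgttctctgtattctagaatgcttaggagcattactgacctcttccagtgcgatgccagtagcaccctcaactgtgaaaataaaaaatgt
LINC01705: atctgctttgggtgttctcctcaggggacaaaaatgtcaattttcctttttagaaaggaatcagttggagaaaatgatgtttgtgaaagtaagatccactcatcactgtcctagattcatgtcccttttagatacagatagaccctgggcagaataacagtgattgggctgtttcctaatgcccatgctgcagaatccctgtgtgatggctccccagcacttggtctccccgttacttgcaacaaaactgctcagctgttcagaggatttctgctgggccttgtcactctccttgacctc
TUG1: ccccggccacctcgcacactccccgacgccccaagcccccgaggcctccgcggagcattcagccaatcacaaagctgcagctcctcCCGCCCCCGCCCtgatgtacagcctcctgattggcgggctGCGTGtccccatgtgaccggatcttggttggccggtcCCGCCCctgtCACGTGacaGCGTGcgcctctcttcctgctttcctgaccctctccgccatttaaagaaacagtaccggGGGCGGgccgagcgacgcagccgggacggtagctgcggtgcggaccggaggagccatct
SNHG1: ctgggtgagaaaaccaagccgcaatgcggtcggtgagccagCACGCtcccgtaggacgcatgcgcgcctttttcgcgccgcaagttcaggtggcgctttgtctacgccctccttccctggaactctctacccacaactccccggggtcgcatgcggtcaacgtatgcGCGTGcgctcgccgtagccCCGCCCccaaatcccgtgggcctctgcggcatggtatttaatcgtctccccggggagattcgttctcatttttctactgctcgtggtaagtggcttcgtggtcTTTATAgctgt
The LINC02392 and LINC01705 windows matched none of the 6 motifs and had GC contents of 39.0% and 45.7%, against a median of 58.7% over all 34943 windows. Both RefSeq starts lie inside the GENCODE gene bodies given above. The TUG1 window (67.7% GC) held the GC box 4 times, the hypoxia response core GCGTG 2 times and the E-box. The E-box is a palindrome that contains the hypoxia response core ACGTG on each strand. The SNHG1 window held the hypoxia response core GCGTG 2 times, the GC box and, after the start, the TATA box. GCGTG was also in the MALAT1 windows that are not printed, 2 times in the first and 1 time in the second. Of all windows, 44.9% held the GC box, 36.5% the hypoxia response core GCGTG and 21.4% the hypoxia response core ACGTG. The TATA box was in 11.6%, the E-box in 7.23% and the AP-1 site in 4.96%. A start with C and 4 further pyrimidines, present in 4.06% of windows, was found in none of the members' windows. The GAS5 window (chr1:173868996-173869295, minus strand) lies wholly before the GENCODE gene body given above, so the GENCODE start of GAS5 was not read.

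Before the members are compared, the libraries themselves need describing. Over 2038 long non-coding RNA genes, the libraries labelled U118 aggregation correlated more closely with U87 libraries (Spearman's rho from 0.66 to 0.71) than with U118 control libraries (0.39 to 0.48). Over all 16382 genes the same ranges were 0.90 to 0.91 and 0.81 to 0.84. All 3 libraries labelled U118 aggregation stood apart from their control in this way, so none could be set aside, and U118 changes below carry this limit. U118 aggregation library 1 also differed from libraries 2 and 3. It held 1848 long non-coding RNA genes at 1 TPM or more against 1090 and 1191, and 13.2% of its TPM was mitochondrial against 29.9% and 26.1%. Mitochondrial genes took 7.42% to 19.7% of TPM in U118 control, 12.9% to 16.9% in U87 control and 22.2% to 23.7% in U87 aggregation libraries. Of 9 glial and glioma markers, 5 in each U87 group and 4 in each U118 group were at 1 TPM or more in all 3 libraries, while GFAP, S100B, AQP4 and SOX2 stayed under 1 TPM in all 12. The summed TPM of 6 fibroblast markers was 391 to 602 in U118 control, 61.1 to 111 in U118 aggregation, 5.54 to 15.1 in U87 control and 37.0 to 42.6 in U87 aggregation libraries. The part of these differences in the results was not tested.

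**Figure D1:**
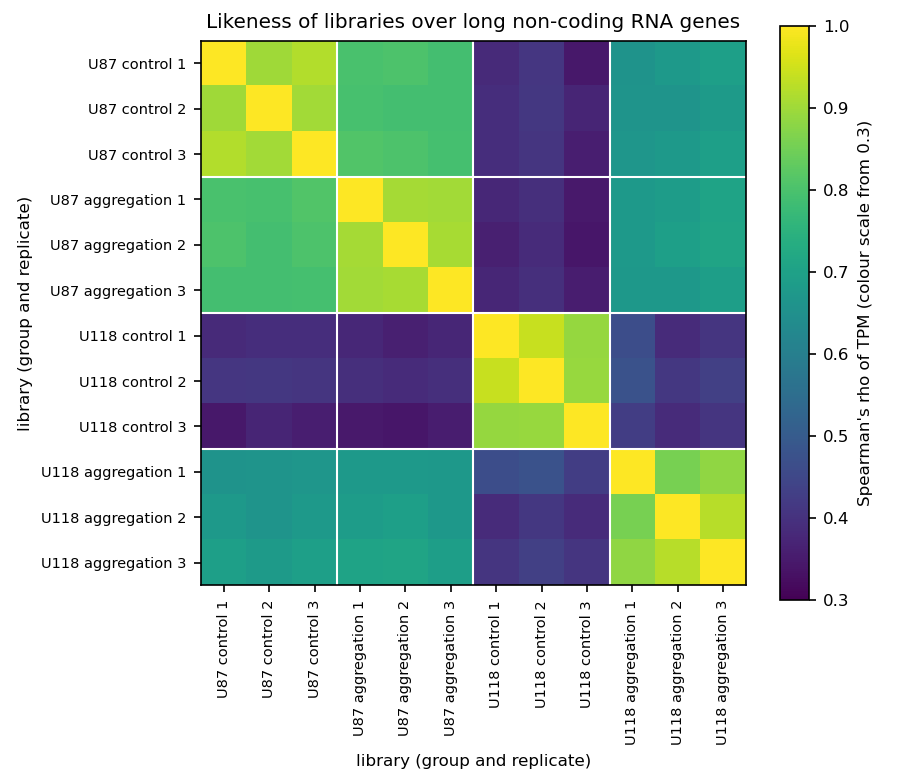
Spearman's rho of TPM between each pair of the 12 libraries (both axes: group and replicate) over 2038 long non-coding RNA genes with at least 1 TPM in 3 libraries. U118 aggregation libraries reach 0.66 to 0.71 with U87 libraries and 0.39 to 0.48 with U118 control libraries.

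In U87, the 3 chosen LINC genes went from near the lower end of the scale to the upper ranks of long non-coding RNAs. LINC02392 was listed at 0, 0 and 0.426 TPM in the control libraries and at 171, 160 and 152 TPM in the aggregation libraries. LINC00922 was at 0.617, 0.826 and 0.520 TPM in control and at 147, 135 and 171 TPM in aggregation libraries. LINC01705 was at 0.189, 0 and 0.246 TPM in control and at 38.1, 37.9 and 39.5 TPM in aggregation libraries. None of the 3 genes had overlapping groups, which is what they were chosen for. By log2 change of TPM + 1 they placed 2, 3 and 5 among 13845 tested genes and 1, 2 and 3 among 1206 long non-coding RNA genes, with changes of 7.17, 6.52 and 5.11. All 3 met the rule for a call that 3.03% of genes met as higher, which follows from their choice. These 3 genes passed the U87 filter of 1 TPM in 3 libraries through the aggregation group alone, and a pseudocount of 0.01 in place of 1 takes the LINC02392 change to 12.16, so the log2 sizes depend on the pseudocount. In U87 aggregation cells LINC02392 and LINC00922 ranked between 7 and 10 of all long non-coding RNA genes by TPM.

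The stated reason for choosing these 3 genes was their rise in U87. The members were chosen with earlier results of these data known, so whether U118 values had a part in the choice is not known. A test in U118 is given for LINC02392 and LINC01705, and LINC00922 is described only, since it passed the U118 filter through the aggregation libraries alone. LINC02392 was at 1.42, 1.14 and 1.42 TPM in U118 control libraries and at 41.6, 39.4 and 53.6 TPM in U118 aggregation libraries. The groups were well apart, and the log2 change of 4.29 ± 0.23 (SE, n = 3 and 3) passed limma's test at an adjusted p = 1.61e-06, with a 95% interval of 3.77 to 4.82. LINC00922 was at 0.235, 0.148 and 0 TPM in U118 control and at 11.5, 2.65 and 3.25 TPM in U118 aggregation libraries. Each aggregation library was above each control library, with library 1 the highest. The log2 difference was 2.37, or 1.81 without library 1, and 5.997 with a pseudocount of 0.01 in place of 1, so its size is set largely by the pseudocount. Its U118 aggregation level, 5.82 ± 4.97 TPM (SD, n = 3), stayed far below the 151 ± 17.9 TPM of U87 aggregation cells. LINC01705 was already at 9.22, 7.33 and 6.96 TPM in U118 control libraries and was at 14.99, 5.90 and 9.36 TPM in aggregation libraries. These groups overlapped, and the change of 0.25 did not pass limma's test (adjusted p = 0.533, 95% interval -0.48 to 0.98). With library 1 left out it was -0.05.

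LINC02392 was the only member called higher in U118 by a test that did not rest on the filter, where 8.64% of all 15527 genes were called higher. A call needed an adjusted p under 0.05 and a log2 change of at least 1. By size of rise LINC02392 placed 8 of 1810 long non-coding RNA genes in U118, LINC00922 62 and LINC01705 433. In the order of levels, U87 aggregation came first for all 3 genes with no overlap, followed by U118 aggregation, which overlapped U118 control for LINC01705. U118 and U87 control libraries also did not overlap, with U118 control higher for LINC02392 and LINC01705 and U87 control higher for LINC00922.

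**Figure D2:**
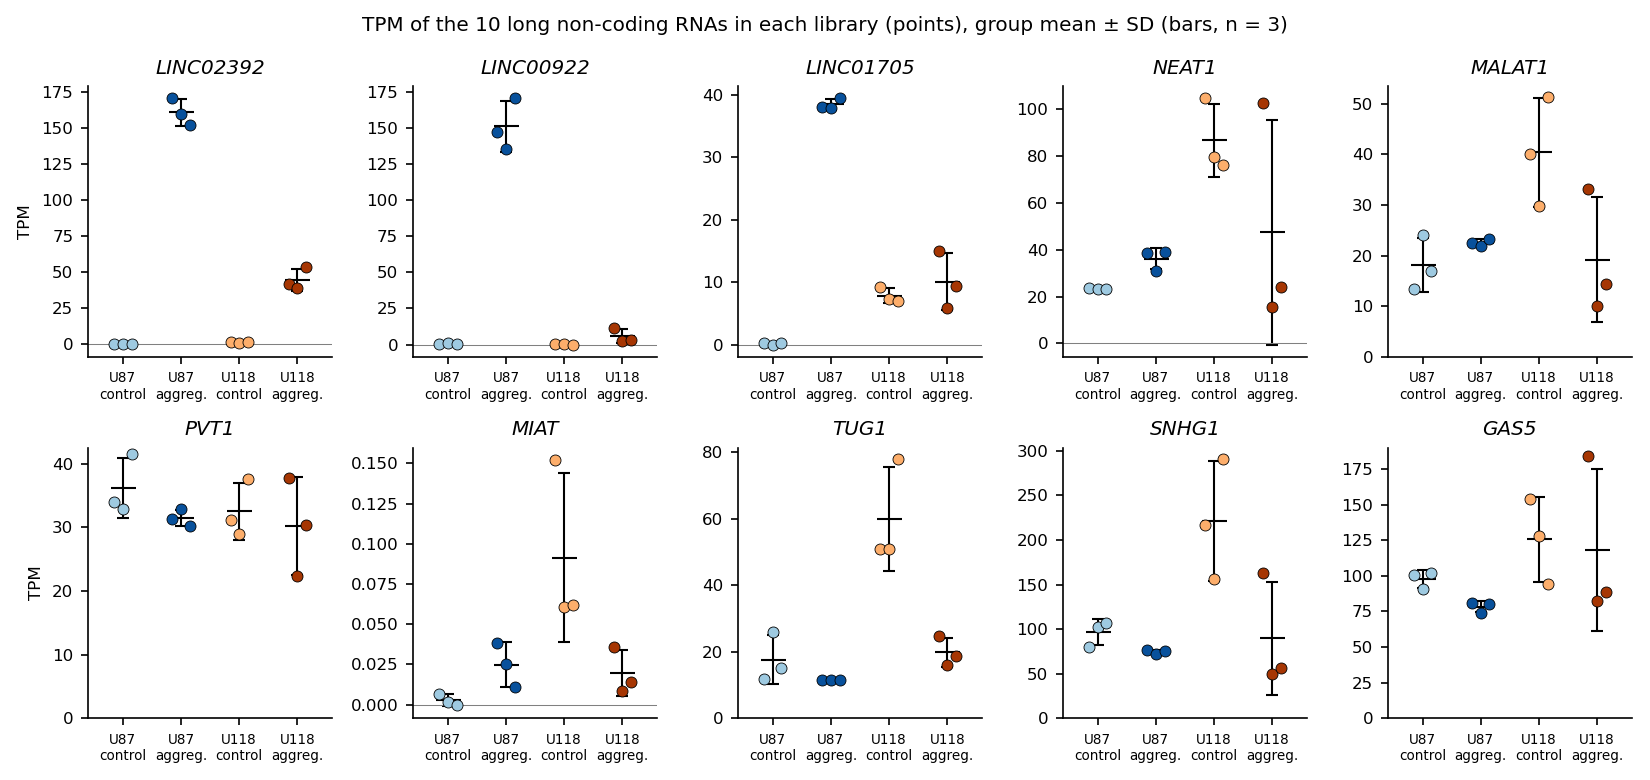
TPM (linear axis, own scale for each gene) of the 10 long non-coding RNAs in every library, with points for libraries, a short bar for the group mean and whiskers for the SD (n = 3). LINC02392 and LINC00922 are higher in aggregation than in control libraries of both lines, with LINC00922 far lower in U118 than in U87 aggregation libraries. LINC01705 is near 0 in U87 control libraries only, and U118 aggregation library 1 lies above libraries 2 and 3 for NEAT1, MALAT1, SNHG1 and GAS5.

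The nuclear RNAs NEAT1 and MALAT1 had changes of opposite sign in the lines. NEAT1 was at 23.6, 23.3 and 23.2 TPM in U87 control and at 38.4, 30.9 and 39.1 TPM in U87 aggregation libraries. The U87 groups did not overlap, and the log2 change of 0.60 ± 0.12 had an adjusted p = 0.00689 (limma) but was under the size needed for a call. In U118, NEAT1 was at 104, 79.5 and 75.9 TPM in control and at 102, 15.6 and 24.2 TPM in aggregation libraries. Libraries 2 and 3 were far below the control libraries while library 1 was level with them, and the change of -1.31 ± 0.57 missed limma's threshold (adjusted p = 0.0823). Without library 1 the change was -2.09 (adjusted p = 0.000231, limma), which would be a call. NEAT1 was called in 2 of 14 alternative fits, this one and the fit with the library number as a replicate block.

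MALAT1 was at 13.4, 24.0 and 16.9 TPM in U87 control and at 22.6, 21.9 and 23.2 TPM in U87 aggregation libraries. These overlapped, and the change of 0.34 did not pass (adjusted p = 0.222, limma, 95% interval -0.14 to 0.81). In U118 it was at 40.0, 29.8 and 51.3 TPM in control and at 33.2, 9.998 and 14.3 TPM in aggregation libraries. MALAT1 fell in U118, with a log2 change of -1.17 (SE 0.40, adjusted p = 0.0369, limma), although aggregation library 1 overlapped the control. The call held in 6 of 14 alternative fits and was lost, among others, with U118 control library 1 or 3 or aggregation library 2 or 3 left out (adjusted p from 0.0724 to 0.141, limma), and on the full gene set also with U118 control library 2 left out (adjusted p = 0.0566, limma). MALAT1 and the long form of NEAT1 lack the usual poly(A) tail, and how far mRNA libraries hold them was not tested.

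TUG1 had the lowest log2 change of the members in U118, although NEAT1 (-2.09) and SNHG1 (-1.99) were lower than TUG1 (-1.70) without aggregation library 1. It was at 50.8, 51.0 and 78.1 TPM in U118 control libraries and at 24.7, 16.1 and 18.8 TPM in aggregation libraries. The groups did not overlap, and the log2 change of TUG1 was -1.54 (SE 0.26, adjusted p = 0.00127, limma), a call kept in all 14 alternative fits. In U87 it was at 11.9, 26.0 and 15.03 TPM in control and at 11.7, 11.5 and 11.6 TPM in aggregation libraries. All U87 aggregation libraries were below all control libraries, but the change of -0.49 did not pass (adjusted p = 0.181, limma), and control library 2 was far above the other two.

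The snoRNA hosts SNHG1 and GAS5 had the highest mean levels of the 10 genes in control cells of each line. SNHG1 was at 79.9, 102.7 and 106.7 TPM in U87 control and at 76.4, 72.4 and 75.3 TPM in U87 aggregation libraries. That change of -0.35 had an adjusted p = 0.0535 (limma), with no overlap of the groups. In U118 it was at 216, 156 and 290 TPM in control and at 163, 49.9 and 56.8 TPM in aggregation libraries. SNHG1 fell in U118, with a log2 change of -1.46 (SE 0.43, adjusted p = 0.0205, limma), with aggregation library 1 above the lowest control library. The call was lost in 4 of 14 alternative fits, among them those without U118 control library 3 (adjusted p = 0.0936, limma) or without aggregation library 3 (adjusted p = 0.0546, limma). On the full gene set it was also lost without U118 control library 1 (adjusted p = 0.0625, limma) or aggregation library 2 (adjusted p = 0.0556, limma).

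GAS5 was at 101, 90.6 and 102 TPM in U87 control and at 80.7, 73.6 and 80.4 TPM in U87 aggregation libraries. The groups were apart, and the change of -0.32 ± 0.08 had an adjusted p = 0.0217 (limma) at a size too small for a call. In U118 it was at 154, 128 and 94.6 TPM in control and at 184, 82.2 and 88.6 TPM in aggregation libraries. Here the groups overlapped, and the change of -0.16 (adjusted p = 0.712, limma, 95% interval -0.91 to 0.60) turned positive, 0.36, after median-ratio scaling.

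PVT1 was called in no comparison. Its libraries ran from 30.2 to 41.6 TPM in U87 and from 22.3 to 37.8 TPM in U118, with changes of -0.19 (adjusted p = 0.238, limma) and -0.13 (adjusted p = 0.687, limma) whose 95% intervals were -0.46 to 0.08 and -0.69 to 0.43. MYC, which ends 53099 bases before PVT1 on the same chromosome, was at 4.34 ± 1.46 TPM in U87 control and 2.48 ± 0.51 TPM in U87 aggregation cells (SD, n = 3), a change of -0.60 (adjusted p = 0.0778, limma). In U118 MYC was at 6.78 ± 4.94 and 6.70 ± 4.40 TPM (log2 change 0.0022, adjusted p = 0.998, limma).

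MIAT was listed at low TPM in these cells. Its highest library, U118 control 1, was at 0.152 TPM, and the U87 control libraries were at 0.00682, 0.00148 and 0 TPM. It passed the filter in neither line and was not tested, and its listed TPM goes against calling it abundant. MIATNB, which overlaps MIAT on the same strand, reached 7.61 TPM. How reads of this locus were divided between MIAT and MIATNB is not known. Among long non-coding RNA genes, SNHG1 ranked between 2 and 25 and GAS5 between 7 and 18 over the 12 libraries, and the other 4 ranked between 16 and 179.

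Taking the 6 well-studied genes that could be tested, 0 were called in U87, where 10.8% of genes were called in either direction. Of all genes 3.03% were called higher there and 7.79% lower. Limma gave 3 of the 6 (NEAT1, SNHG1 and GAS5) an unadjusted p under 0.05. At an adjusted p under 0.05 and any size NEAT1 was higher and GAS5 lower, as were 9.43% and 29.7% of all genes. The U87 libraries of NEAT1 were apart and higher in aggregation cells, as for 13.6% of genes, and those of PVT1, TUG1, SNHG1 and GAS5 apart and lower, as for 39.8%. In U118 only TUG1 of the 6 was apart and lower, as were 42.9% of genes, and 0 were apart and higher, as were 15.7%. In U118, 3 of the 6 were called lower and 0 higher, where 26.6% of genes were called lower. The median log2 change of all tested genes was itself below 0, at -0.24 in U87 and -0.52 in U118. Relative to that median NEAT1 was at 0.84 in U87, SNHG1 at -0.11 and GAS5 at -0.07. Likewise, TUG1 was at -1.02 in U118, SNHG1 at -0.94 and MALAT1 at -0.65, while PVT1 and GAS5 were above it by 0.39 and 0.37. Median-ratio scaling, which removes most of this shift, left 1 of the 3 calls, TUG1 (-1.04, adjusted p = 0.0048, limma). In that fit 2113 of 15385 genes were called lower.

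**Figure D3:**
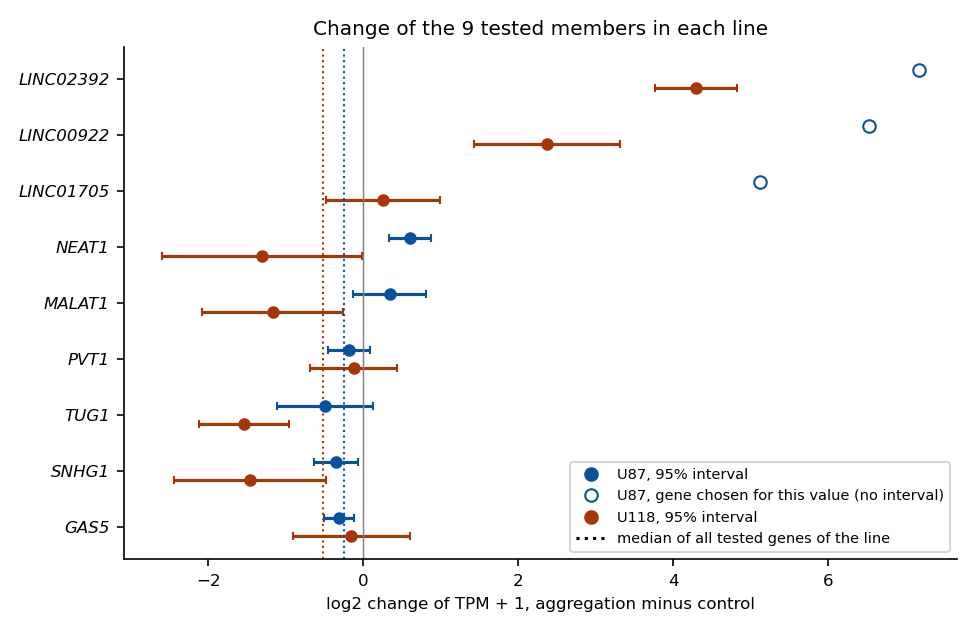
Log2 change of TPM + 1 from control to aggregation cells for 9 members (rows) in U87 and U118, with 95% intervals (n = 3 and 3 libraries), open points for the values the genes were chosen on, and dotted lines at each line's median over all tested genes (-0.24 and -0.52). LINC02392 and LINC00922 (for which the U118 value is also a description) lie above 0 in U118, and TUG1, SNHG1 and MALAT1 below it.

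The difference between the lines was tested as an interaction over all 12 libraries. NEAT1 (log2 change in U118 minus that in U87 -1.91 ± 0.68, adjusted p = 0.0441), MALAT1 (-1.51 ± 0.50, adjusted p = 0.0325) and TUG1 (-1.05 ± 0.38, adjusted p = 0.0456) were called by limma. That is 3 of 6 genes called lower, where 18.5% of 16382 genes were. The number called ran from 0 to 4 with single libraries left out. It was 0 without U87 control library 1 or 3, any U87 aggregation library, U118 control library 1 or 3, or U118 aggregation library 2 or 3, and 1 without U118 control library 2. SNHG1 (-1.10, adjusted p = 0.112), PVT1 (0.06, adjusted p = 0.881) and GAS5 (0.16, adjusted p = 0.766) did not pass limma's test.

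The lines were also compared with each other within each state. In control cells NEAT1 (log2 difference U118 minus U87 1.83 ± 0.48, adjusted p = 0.0061), TUG1 (1.75 ± 0.27, adjusted p = 0.000132), SNHG1 (1.15 ± 0.36, adjusted p = 0.0163) and MALAT1 (1.12 ± 0.36, adjusted p = 0.0171) were called higher in U118 by limma. These were 4 of the 6 genes, against 25.6% of all genes. Without U87 control library 1, or without U118 control library 3, 2 were called. In aggregation cells 0 of the 6 were called, against 14.4% of genes called in either direction, and limma gave only TUG1 an unadjusted p under 0.05 (0.71, adjusted p = 0.0652). The members' differences there ran from -0.39 (MALAT1) to 0.71 (TUG1). The closeness of U118 aggregation libraries to U87 given above lies beside these values, and its part was not tested.

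The host genes of snoRNAs, to which SNHG1 and GAS5 belong, were followed as a list of 29 non-coding genes. In U118, 3 of 28 tested genes rose and 6 fell, where 8.64% and 26.6% of all genes were called higher and lower. SNHG18 (0.312 to 14.1 TPM, log2 change 3.51), SNHG5 (52.1 to 203 TPM, 1.94) and DANCR (28.2 to 62.6 TPM, 1.10) rose, and SNHG14, SNHG20, SNHG32, SNHG17, SNHG1 and SNHG9 fell, with changes from -2.03 to -1.12. SNHG18 passed the U118 filter through the aggregation libraries alone, so its rise is a description. The list's median change was -0.29, against -0.52 for all genes. In U87, 1 of 27 rose and 2 fell (3.03% and 7.79% of all genes), with a median of -0.35 against -0.24. SNHG14, the host of the snoRNAs of the imprinted Prader-Willi region, rose in U87 (2.22 to 7.61 TPM, 1.43) and fell in U118 (16.3 to 3.43 TPM, -2.03). SNHG7 (-1.16) and SNHG21 (-1.19) fell in U87, but neither was called under median-ratio scaling (-0.89 and -0.96). Under median-ratio scaling 8 rose and 4 fell in U118, and the list's median turned from -0.29 to 0.31. Of all 15385 genes in that fit, 2258 were called higher and 2113 lower. The 9 U118 calls included SNHG1 itself. Without U118 aggregation library 1, 2 rose and 8 fell, where 1294 and 5643 of all 15527 genes were called higher and lower.

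**Figure D4:**
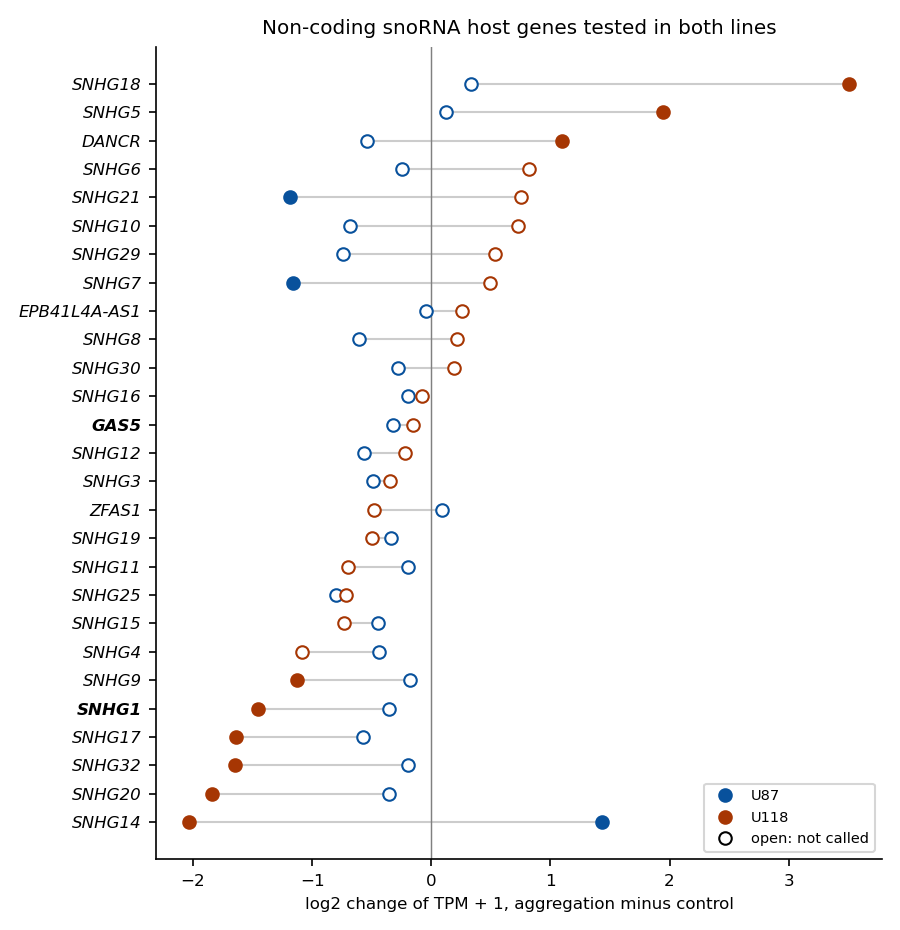
Log2 change of TPM + 1 from control to aggregation cells for 27 snoRNA host genes (rows) tested in both lines, filled where called and open where not. The members SNHG1 (-0.35 in U87, -1.46 in U118) and GAS5 (-0.32, -0.16) are in bold.

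Proteins that work with the nuclear RNAs were followed next, and their counts stand beside 26.6% of all genes called lower in U118 and 10.8% called either way in U87. Of 18 paraspeckle proteins, which assemble on NEAT1, 0 were called in U87 and 4 fell in U118, a share below that of all genes, with list medians of -0.49 and -0.82 against -0.24 and -0.52 for all genes. In U118 PSPC1 (81.1 to 13.1 TPM, log2 change -2.66, adjusted p = 0.000241, limma), a core paraspeckle protein, fell most, followed by the RNA-binding proteins TARDBP (-1.20), RBM12 (-1.09) and HNRNPK (-1.07). Of 17 nuclear speckle and SR splicing proteins, which share their compartment with MALAT1, 0 were called in U87 and 10 fell in U118, with medians of -0.45 and -1.17. SRRM2, a core speckle protein, went from 428 to 89.3 TPM in U118 (-2.26, adjusted p = 0.00024, limma), and RNPS1 from 246 to 83.6 TPM (-1.55). The 10 included SON (-1.23) and the splicing factors SRSF1, SRSF3, SRSF6, SRSF7 and SRSF11 (-1.17 to -1.30). Of 16 nonsense-mediated decay factors, which act on SNHG1 and GAS5 transcripts, 0 were called in U87 and 3 fell in U118, the kinase SMG1 (-1.48), SMG8 (-1.08) and NBAS (-1.07). That share too was below that of all genes, and the list medians were -0.37 and -0.46. Under median-ratio scaling 1, 3 and 0 genes of these lists were called lower in U118, and without U118 aggregation library 1 the counts were 6, 11 and 3. Of all genes, 2113 of 15385 and 5643 of 15527 were called lower in these settings.

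Long non-coding RNAs linked to p53, hypoxia, glioma or senescence were followed as 3 lists, which share the members NEAT1, MALAT1 and PVT1 and some genes with each other. In U87 the 3 lists held 0, 0 and 1 called genes. The single one was HOTAIRM1, an RNA of the HOXA cluster, which fell (-1.16) but was not called under median-ratio scaling (-0.92). The list medians in U87 were 0.69, 0.0057 and -0.37, against -0.24 for all genes, and 5 of the 6 tested p53 genes were above 0. In U118 the medians were 0.25, -0.09 and 0.024, against -0.52 for all genes. Under median-ratio scaling the p53 list had 2 genes higher in U87, where 689 of all 13871 genes were called higher. In U118 the p53 list had 2 of 7 genes higher and 1 lower (2 lower without aggregation library 1). Over all long non-coding RNA genes 11.6% were called higher and 23.7% lower there. PURPL, an RNA induced by p53, rose from 0.387 to 23.5 TPM (4.03), LNCTAM34A from 0.167 to 1.73 TPM, and LINC-PINT fell from 28.5 to 7.50 TPM (-1.83). LUCAT1 (2.67), UCA1 (3.73) and HOTAIR (1.39) were the 3 higher genes of 8 on the hypoxia list in U118, with MALAT1 its lower gene. PURPL, LNCTAM34A, UCA1 and HOTAIR passed the U118 filter through the aggregation libraries alone, so their rises are a description. On the glioma and senescence list 4 of 14 genes were higher in U118 and 3 lower. All 4 higher genes passed the filter through the aggregation libraries alone. HOTAIRM1 rose in U118 from 0.25 to 35.2 TPM, opposite in sign to its U87 change, and TP73-AS1 went from 14.0 TPM to being listed at 0. NORAD, an abundant RNA that binds Pumilio proteins, fell in U118 (105 to 53.2 TPM, -1.07).

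Long non-coding RNAs were also counted as a class. In U87, 50 of 1206 tested genes were called higher (4.15%) and 93 lower (7.71%), and in U118 210 of 1810 were called higher (11.6%) and 429 lower (23.7%). Of 1064 genes tested in both lines, 17 rose in both, which is 47.2% of the U87 and 10.3% of the U118 genes called higher, and 14 fell in both, 17.5% and 8.33% of those called lower. In opposite directions, 26 fell in U87 and rose in U118, 32.5% of the U87 genes called lower, and 6 rose in U87 and fell in U118. LINC02392 and LINC00922, which were chosen for their U87 rise, were among the 17. The balance of these counts moved with the scaling, and genes called higher made up 35.0% of U87 and 32.9% of U118 long non-coding calls here and 62.6% and 56.0% after median-ratio scaling. Of the 210 genes higher in U118, 73.3% had a mean of at least 1 TPM in U87 control cells, against 60.5% of the 1171 genes not called. Of the 429 lower genes, 59.4% were under 1 TPM in U87 control cells, against 39.5%.

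**Figure D5:**
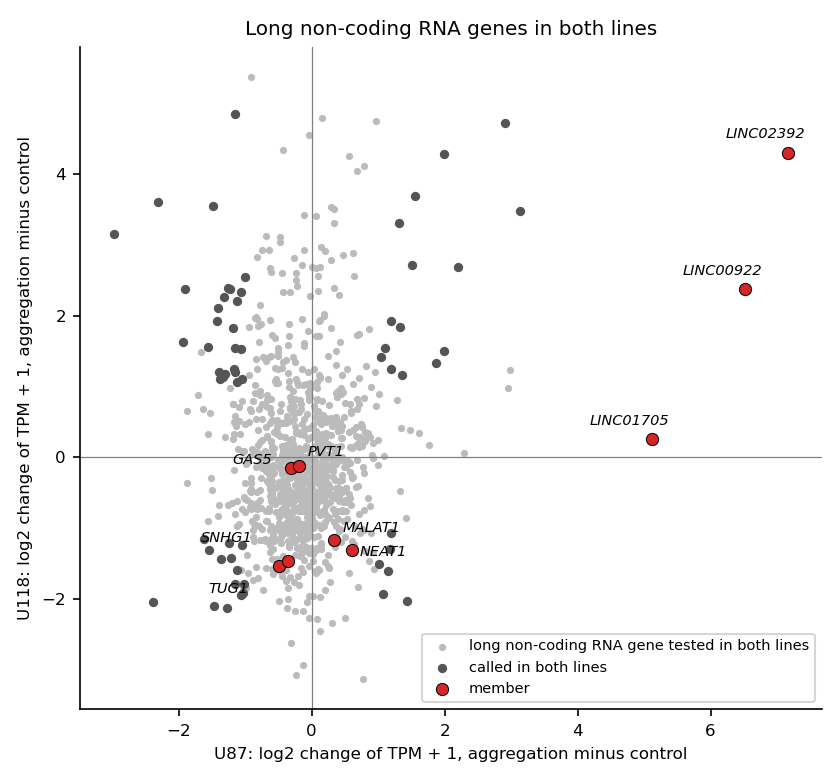
Log2 change of TPM + 1 from control to aggregation cells in U87 (x axis) and U118 (y axis) for long non-coding RNA genes tested in both lines, with genes called in both lines in dark grey and members in red. LINC02392 (7.17 and 4.29) lies furthest to the right, and LINC01705 (5.11 and 0.25) lies near the U118 zero line.

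Next to the LINC genes, the other long non-coding RNAs with the largest changes were named by a fixed rule of size and non-overlapping groups. In U87 LINC01060 rose from 1.81 ± 0.36 to 21.0 ± 1.48 TPM (log2 change 2.98, adjusted p = 6.93e-05, limma) and ENSG00000269729 from 1.53 ± 0.54 to 21.1 ± 3.69 TPM. MIR100HG, the host of a microRNA cluster with miR-100, fell in U87 from 31.9 ± 15.1 to 4.89 ± 0.56 TPM (-2.39) and in U118 from 70.8 ± 26.3 to 17.6 ± 11.1 TPM (-2.04). The other 4 U87 genes that fell have no symbol in the name table, among them ENSG00000231714, which went from 10.6 to 0.458 TPM in U87 and from 0.189 to 9.70 TPM in U118. ENSG00000231714 passed the U87 filter through the control libraries alone and the U118 filter through the aggregation libraries alone, so its changes are a description. In U118 LINC02381 rose most (0.0387 to 41.8 TPM, 5.36), followed by HOTAIRM1 (4.84), LINC02154 (4.79), LINC01173 (4.74) and IGFL2-AS1 (4.72). Each of these genes was under 1 TPM in every U118 control library. They passed the U118 filter through the aggregation libraries alone, so these sizes are a description. LINC02154 was at 437 ± 95.9 and 479 ± 27.6 TPM in U87 control and aggregation cells, and at 0.477 and 46.8 TPM in those of U118. IGFL2-AS1 was higher in aggregation cells of U87 too (2.91). With at most 0.098 TPM in U87 control libraries, it passed the U87 filter through the aggregation libraries alone, so this size is also a description. LINC00665 (43.8 TPM in U118 control cells) and ZNF667-AS1 (35.3 TPM) fell most in U118 and were listed at 0 in all 6 U87 libraries, as were GAS6-DT and LINC02506. NNT-AS1 went from 18.5 to 0.00525 TPM in U118 and was at 0.965 and 0.77 TPM in U87. LINC00665, ZNF667-AS1, GAS6-DT, LINC02506 and NNT-AS1 passed the U118 filter through the control libraries alone.

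The surroundings of the 3 LINC genes were read within 500 kb of each gene body. LINC02392 had 5 annotated neighbours, 0 of them protein-coding and 0 expressed enough to be tested in either line. LINC00922 had 9 neighbours, of which only the cadherin gene CDH11 was tested, in U118. CDH11 was at 16.8 ± 2.25 TPM in U118 control and 15.2 ± 9.34 TPM in U118 aggregation cells (log2 change -0.27, adjusted p = 0.549, limma), and at most 0.0984 TPM in any U87 library. LINC01705 had 15 neighbours, 4 of them tested. The phosphatase gene DUSP10, 299.5 kb away, was at 6.74 ± 1.45 and 10.4 ± 0.27 TPM in U87 control and aggregation cells (0.57, adjusted p = 0.0314, limma) and at 43.7 ± 4.16 and 23.7 ± 2.75 TPM in those of U118 (-0.86, adjusted p = 0.0082, limma), in both lines under the size of a call. TAF1A, a subunit of the RNA polymerase I factor SL1, fell in U87 (-1.19, adjusted p = 0.00983, limma) and was at -0.95 in U118 (adjusted p = 0.0281, limma). HHIPL2 had a change of 0.22 in each line (adjusted p = 0.194 and 0.71, limma). None of the 4 tested neighbours of LINC01705 was called higher in either line.

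The genes most like each member over the 12 libraries were found by Pearson's r of log2(TPM + 1) among 16368 genes, as a description of points that fall in 4 groups and share libraries. LINC02392 was most like AC027031.2 (r = 0.98) and the hyaluronan synthase gene HAS1 (0.97), LINC00922 like SYNDIG1 and the growth factor gene TGFB3 (both 0.98), and LINC01705 like NTNG2 (0.98), CHI3L2 and the receptor gene TNFRSF14 (both 0.97). NEAT1 was most like SLC35D1, TRIM38 and the copper transporter gene SLC31A1 (all 0.97), MALAT1 like RBM43, NAIP and PWWP2A (all 0.97), and TUG1 like STRN, CDK13 and MYBL1 (all 0.99). SNHG1 was most like HERC2P9, TMEM67 and ANKRD13A (0.97 to 0.98), GAS5 like NAXD, MSTO2P and TTC4 (0.96 to 0.97) and PVT1 like GMDS-DT, ALOX12 and MIR647 (0.88). Among the members, MALAT1 was close to SNHG1 (0.90) and NEAT1 (0.89), and LINC02392 to LINC00922 (0.88) and LINC01705 (0.85). These LINC genes were chosen for their rise in U87 libraries that also enter r, so their likeness to each other follows in part from the choice.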

How the data were processed

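The 12 mRNA libraries were made from total RNA of U87 and U118 cells. The authors deposited TPM values for 58174 Ensembl genes, with 1 table per line. Per the submitters' processing notes, FastQC 0.11.2, Trimmomatic 0.36, HISAT2 2.0, bedtools 2.26.0 and GRCh38 were used. How TPM was computed, the annotation and the strand setting are not given in the sources used here. TPM holds no read counts, so the depth is unknown. Sample titles gave the group and the number of each library. Symbols came from a gene name table, and biotypes (14452 long non-coding genes) from GENCODE 29.

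log2(TPM + 1) was fitted with limma 3.58.1 in R 4.3.3 (eBayes with trend), within a line or, across lines, over all libraries. A gene entered with 3 or more libraries at 1 TPM or above, and p-values were adjusted by Benjamini-Hochberg over every gene tested. Calls needed an adjusted p under 0.05 and a log2 change of 1 or more. With 3 libraries against 3 an exact permutation test cannot go below 0.1, so none was run. On simulated data, 92.5% of 200 changed genes (log2 change 2) were called in U87 and 80% in U118. The changed genes were drawn from those well above 0 TPM, with independent normal noise. Changes near 0, an outlying library and a shift of all genes were not simulated. The alternatives were other pseudocounts (0.1, 0.01), no filter, a stricter filter (mean of 10 TPM), median-ratio scaling, TPM without mitochondrial genes, a replicate block, no trend, and each library left out. Leaving out a library on the full gene set, and rescaling the gene lists, were chosen after seeing the data. The members and lists were chosen with earlier results of these data known. Named genes were the members, the 5 long non-coding RNA genes with the largest called rise and fall in each line (groups not overlapping), tested neighbours within 500 kb, MYC, and the 3 genes most like each member. Examples from the gene lists were chosen after their values were seen. Tables were made with pandas 2.3.3 and figures with matplotlib 3.10.9.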

Additional observations from a re-analysis of the deposited data

Results flagged for a closer look

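For 3 members the change from control to aggregation cells differed between the lines by an interaction test in limma. NEAT1 differed by -1.91 (log2 change in U118 minus that in U87, adjusted p = 0.0441), with changes of 0.60 in U87 and -1.31 in U118. MALAT1 differed by -1.51 (adjusted p = 0.0325, limma), with changes of 0.34 in U87 and -1.17 in U118. TUG1 differed by -1.05 (adjusted p = 0.0456, limma), with changes of -0.49 and -1.54. They were called in 7, 10 and 3 of 20 alternative fits. Without U118 aggregation library 1, where NEAT1 and MALAT1 are high, the differences were -2.69, -1.98 and -1.21. The part of the likeness of U118 aggregation libraries to U87 in these values was not tested.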

How the results depend on the processing

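LINC02392 and TUG1 kept their direction and call in U118 under all 14 alternatives, with log2 changes from 4.16 to 5.07 and from -1.70 to -1.04. LINC00922 is left out of this, since its U118 fit rests on the filter. The number of members called lower in U118 was 3, and 1 with median-ratio scaling or with no filter, 1 to 4 with 1 library left out. Counting LINC00922, the number called higher in U118 was 2, and 1 at a mean of at least 10 TPM or (range 1 to 2) with 1 library left out, where LINC00922 no longer passed the filter. Of the interactions 3 were called, 1 with a pseudocount of 0.01, 0 with no filter and 0 to 4 with 1 library left out. Of the control comparison's 4 calls, 2 were left with median-ratio scaling and 2 to 4 with 1 library left out. Long non-coding genes called higher in U87 (50) numbered 91 and 88 at pseudocounts of 0.1 and 0.01, 82 with median-ratio scaling, 11 at a mean of at least 10 TPM and 24 to 54 with 1 library left out (45 to 54 on the full gene set), and those called lower (93) 161, 168, 49, 20 and 60 to 97 (82 to 102). In U118 the higher genes (210) numbered 246 and 241 at those pseudocounts, 305 with median-ratio scaling, 47 at a mean of at least 10 TPM and 80 to 202 with 1 library left out (183 to 227 on the full gene set), and the lower genes (429) 609, 558, 61, 182 to 637 (338 to 644) and, with median-ratio scaling, 240. The filter on 3 libraries is stricter with fewer libraries, which by its construction lowers the counts on the side of the left-out group, and without U118 resistant replicate 1 on the full gene set 183 were higher and 644 lower.

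Uncalled values changed sign with median-ratio scaling for GAS5 (0.36) and PVT1 (0.37) in U118, PVT1 in U87 (0.083), GAS5 between control cells (-0.00066) and SNHG1 between aggregation cells (-0.090), and without mitochondrial genes for GAS5 (0.040) and PVT1 (0.065) in U118. With 1 library left out, values ran through 0 in U118 for GAS5 (-0.52 to 0.053, and 0.0039 without control library 1), PVT1 (-0.30 to 0.067) and LINC01705 (-0.055 to 0.55), in the interaction for GAS5 (-0.21 to 0.37) and PVT1 (-0.11 to 0.25), and between aggregation cells for NEAT1 (-0.85 to 0.47), PVT1 (-0.26 to 0.11) and SNHG1 (-0.48 to 0.36). The cause was not tested. Deviations of control and aggregation libraries were correlated by library number. In U118 the same-numbered pairs had r = 0.14, 0.051 and 0.095, each above every pair of unlike number (-0.11 to 0.040). Same-numbered U87 pairs had r = 0.011, -0.067 and -0.040, which overlapped the pairs of unlike number (-0.058 to 0.077). Whether same-numbered U118 libraries share more than a number was not tested. With that number as a replicate block, NEAT1 was called lower in U118 (-1.31, adjusted p = 0.000431, limma), TUG1 was lost from the interaction (adjusted p = 0.0516, limma), and 211 long non-coding genes were higher and 438 lower in U118. TPM carries no depth, so the precision of values under 1 TPM is not known.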
